A study of Mus musculus with 6 samples.

Results

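The 10 genes described here belong to the endoplasmic reticulum (ER) stress and integrated stress responses: Atf4, Ddit3, Trib3, Chac1, Asns, Xbp1, Hspa5, Herpud1, Sdf2l1 and Dnajb9. They were taken by symbol from a table of RNA sequencing counts with 55536 named gene rows, of which 14719 reached a CPM (count scaled to a common library size) of 1 in some library and were analysed. All 10 genes passed that limit. The symbol Ddit3 stood on 2 rows; the second, an entry of 105 bases that lies within the gene, had 0 counts in every library and was left aside.

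The samples were from C57BL/6 mice aged 8 weeks, with 1 library for each of 6 groups. GM-BMDM are macrophages grown from bone marrow with GM-CSF for 7 days, and they were sequenced after interleukin-6 (IL6) for 3 h and without it. M-BMDM are macrophages grown with M-CSF for the same time, and they were sequenced without IL6 and after 3 h and 24 h of it. BM is bone marrow cells. The labels name no altered gene, and they do not give the IL6 dose, the number of animals behind a library, or whether the untreated and the 24 h cultures were collected together.

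Cells adjust to misfolded protein in the ER through the sensors IRE1, ATF6 and PERK. IRE1 splices the Xbp1 transcript into one that encodes an active factor, and XBP1 and ATF6 raise chaperones and degradation factors of the ER. PERK and kinases that sense amino acid shortage, viral RNA or haem shortage phosphorylate the initiation factor eIF2, which lowers protein synthesis in general while the ATF4 protein is made; this is the integrated stress response. Macrophages secrete many proteins and use both pathways. Gene counts do not separate spliced from unspliced Xbp1, and they do not measure how much ATF4 is translated.

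The promoters of several of these genes hold short sequences that the stress factors are known to bind, and the stretches that hold them are shown because the same genes are compared at the end. RefSeq promoters of the GRCm38.p6 build, 300 bases each with 250 before the gene's start, were matched for 10 of 10 genes. The C/EBP-ATF element, to which ATF4 binds with a C/EBP partner, was searched as TGATGNAA on both strands and was found in 4 of 10, Trib3, Chac1, Asns and Herpud1, and in 4.06% of 27025 promoters. The stretches around it follow, 5′ to 3′ on the strand of the gene, with the matched letters in capitals. Asns carries the element on its own strand, and the others carry its reverse complement.
Chac1 (chr2:119351019-119351086, plus strand): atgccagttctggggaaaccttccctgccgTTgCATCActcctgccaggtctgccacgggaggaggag
Herpud1 (chr8:94386287-94386354, plus strand): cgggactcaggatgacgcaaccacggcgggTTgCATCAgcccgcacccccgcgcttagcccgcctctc
Asns (chr6:7693210-7693262, minus strand): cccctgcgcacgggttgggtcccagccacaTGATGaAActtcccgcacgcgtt
Trib3 (chr2:152344028-152344057, minus strand): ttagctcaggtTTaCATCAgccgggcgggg

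The ER stress element, bound by ATF6 and XBP1, was searched as CCAAT followed by CCACG with 9 bases between them. In this form it was found in 1 of 10, Hspa5, and in 0.13% of all promoters. Other spacings and orientations of its parts were not searched, so genes without this match may still hold such an element. The 5 matches lay at bases -193 to -186 (Chac1), -112 to -105 (Herpud1), -23 to -16 (Asns), 15 to 22 (Trib3) and -65 to -47 (Hspa5), counted from the RefSeq start. The XBP1 element TGACGTGG and the cAMP response element TGACGTCA were in 0 of 10, and in 0.607% and 1.88% of all promoters.
Hspa5 (chr2:34771995-34772073, plus strand): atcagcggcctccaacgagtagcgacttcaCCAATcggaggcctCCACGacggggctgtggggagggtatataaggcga

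The libraries held from 18567482 to 24196082 counts. Markers followed the labels: the summed level of 10 core macrophage genes was 26756 to 48319 CPM in the cultures and 5565 CPM in BM, and that of 10 erythroid genes was 8.75 to 28.1 CPM in the cultures and 82798 CPM in BM. Lyz2 alone gave 20120 to 44295 CPM of the macrophage sum in the cultures and 5175 CPM of it in BM. By the calls described below, 8 of these 10 macrophage genes were higher than in BM in untreated M-BMDM and 10 in untreated GM-BMDM, with 0 lower. In bulk RNA, fewer cells of a type and less RNA per cell cannot be told apart. Libraries after 3 h of IL6 lay close to their untreated ones, yet differed by more than sampling noise, with a chi-square per degree of freedom of 10.1 in M-BMDM and 5.41 in GM-BMDM over genes with 10 or more counts. The counting intervals below are therefore narrower than the spread between libraries.

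Values are counts scaled by TMM to a common library size and given as scaled CPM. Calls between 2 libraries required a ratio of 2-fold or more, an exact 95% interval that did not contain 1, and 5 CPM or more in the library with the higher level. With 1 library per group, a ratio has no replicate check.

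Among the integrated stress genes, 4 of 5 had their highest level in a GM-CSF library. Atf4 (chromosome 15, 80255184 to 80257541, GRCm38), the central transcription factor of this response, had 278.7 CPM in GM-BMDM with IL6 and 272.5 CPM without it. In M-BMDM it had 207.8 CPM without IL6, 212.9 CPM after 3 h and 136.8 CPM after 24 h, and in BM 176.2 CPM. The GM-CSF libraries were thus highest and the 24 h library lowest, 2.04-fold apart.

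Ddit3 (chromosome 10, 127290774 to 127296288) encodes CHOP, a factor that ATF4 induces and that promotes cell death under lasting stress. It had 21.6 CPM in GM-BMDM with IL6 and 22.9 CPM without it, then 9.66, 8.89 and 10.7 CPM in M-BMDM without IL6 and after 3 h and 24 h, and 16.3 CPM in BM. The M-CSF libraries lay below BM and the GM-CSF libraries above it. Ddit3 shares 68 of its 1713 exonic bases with Mars, a tRNA synthetase gene on the other strand, and use of strand in counting is not given in the sources used here; Mars ranged only from 49.5 to 60.6 CPM.

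Trib3 (chromosome 2, 152337422 to 152344032) encodes a pseudokinase that ATF4 and CHOP induce and that restrains ATF4. It had 23.1 CPM in GM-BMDM with IL6 and 23.1 CPM without it. M-BMDM had 8.70 CPM without IL6, 10.2 CPM after 3 h and 4.73 CPM after 24 h, and BM 0.617 CPM. Of the 10 genes it had the widest range, 37.4-fold.

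Chac1 (chromosome 2, 119351229 to 119354381) encodes an enzyme that degrades glutathione and is a target of ATF4. Its levels were 5.08 CPM in GM-BMDM with IL6, 5.70 CPM in GM-BMDM, 2.20, 1.99 and 1.04 CPM in M-BMDM without IL6 and after 3 h and 24 h, and 4.57 CPM in BM. The 24 h value stands for 25 counts, so its error is wide.

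Asns (chromosome 6, 7675169 to 7693254), the asparagine synthetase and an ATF4 target, had its highest levels in M-BMDM, unlike the other target genes. It had 35.6 CPM in GM-BMDM with IL6 and 32.0 CPM without it, against 44.4, 49.7 and 25.7 CPM in M-BMDM without IL6 and after 3 h and 24 h. BM had 39.3 CPM. The untreated and 3 h M-CSF libraries were the highest of the 6, and the 24 h library the lowest.

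Levels of the ER genes differed in pattern among themselves. Xbp1 (chromosome 11, 5520659 to 5525893), the factor spliced by IRE1, had 245.8 CPM in GM-BMDM with IL6, 223.1 CPM in GM-BMDM, 180.0, 187.0 and 139.7 CPM along the M-BMDM series and 112.4 CPM in BM. Hspa5 (chromosome 2, 34771970 to 34777547), the chaperone BiP that holds the sensors inactive, had 527.8 CPM in GM-BMDM with IL6, 551.6 CPM in GM-BMDM, 831.5, 837.3 and 833.3 CPM along the M-BMDM series and 362.8 CPM in BM. Of the 5 ER genes described here, only Hspa5 was thus highest in M-BMDM, and its 3 M-CSF libraries were nearly level.

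Herpud1 (chromosome 8, 94386438 to 94395377), a membrane protein of ER-associated degradation, had 66.3 CPM in GM-BMDM with IL6, 57.7 CPM in GM-BMDM, 36.6, 39.6 and 41.5 CPM along the M-BMDM series and 95.7 CPM in BM. It alone among the 10 genes was highest in BM. Sdf2l1 (chromosome 16, 17130138 to 17132383), a partner of BiP and its co-chaperones, had 97.7 CPM in GM-BMDM with IL6, 96.2 CPM in GM-BMDM, 49.7, 58.2 and 87.1 CPM along the M-BMDM series and 30.8 CPM in BM. Dnajb9 (chromosome 12, 44205559 to 44210326), a co-chaperone of BiP that represses IRE1, had 34.9 CPM in GM-BMDM with IL6, 37.4 CPM in GM-BMDM, 25.9, 24.6 and 36.1 CPM along the M-BMDM series and 18.0 CPM in BM. For Sdf2l1 and Dnajb9 the 24 h library stood near the GM-CSF ones and above the other M-CSF ones.

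**Figure D1:**
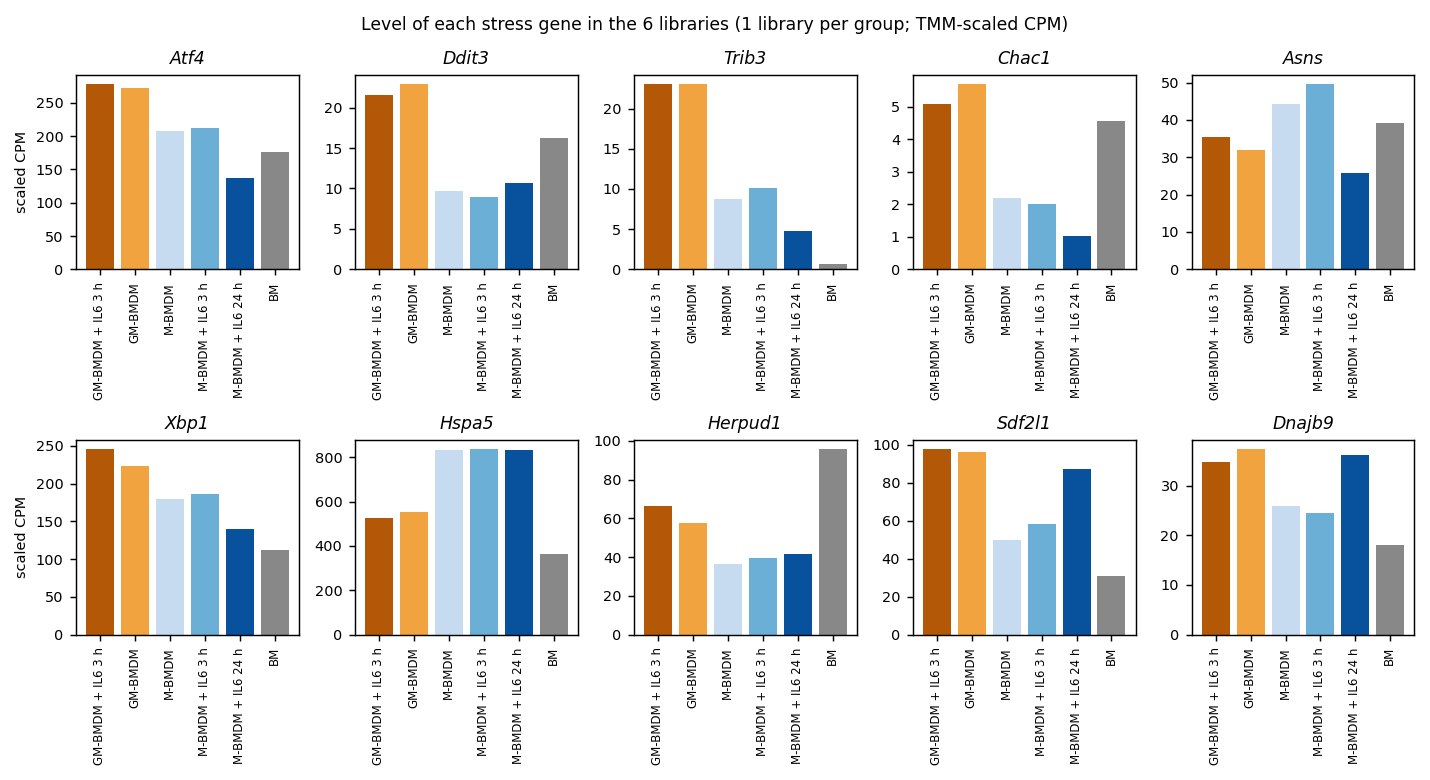
Scaled CPM (y axis, linear from 0, a scale of its own in each panel) of the 10 genes in the 6 libraries; each bar is 1 library, so there is no error bar. Trib3 ran from 0.617 CPM in BM to 23.1 CPM in GM-BMDM, Herpud1 was highest in BM at 95.7 CPM, and Hspa5 was 831.5 to 837.3 CPM in the 3 M-BMDM libraries.

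Levels can be compared between genes only per length of transcript. As CPM per kilobase of the deposited gene length, Hspa5 was the most abundant in all 6 libraries, at 202.0 to 211.1 in GM-BMDM, 318.2 to 320.5 in M-BMDM and 138.8 in BM. Atf4 came next, at 79.3 to 161.5. Chac1 was the least abundant in the cultures, at 0.634 to 3.48, and Trib3 in BM, at 0.305. Summed over the 5 ER genes, the level per kilobase was 447.4 to 453.8 in GM-BMDM, 476.9 to 499.1 in M-BMDM and 275.8 in BM. Hspa5 alone gave 202.0 to 211.1 of that sum in GM-BMDM and 318.2 to 320.5 in M-BMDM, so the sum mainly follows that gene. Each of the other ER genes was higher in both GM-CSF libraries than in the untreated and 3 h M-CSF ones. Summed over the 5 integrated stress genes, the level per kilobase was 214.5 to 217.9 in GM-BMDM, 107.1 to 164.3 in M-BMDM and 143.1 in BM. Atf4 alone gave 158.0 to 161.5 of it in GM-BMDM, 79.3 to 123.4 in M-BMDM and 102.2 in BM.

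GM-CSF and M-CSF macrophages were compared in 2 pairs of libraries, one with IL6 for 3 h and one without. In both pairs GM-BMDM had more than 2-fold higher levels of Ddit3, Trib3 and Chac1, genes induced through ATF4. Atf4 and 4 of the 5 ER genes were higher by less, and Hspa5 and Asns were lower. In the untreated pair the log2 ratio was 1.25 for Ddit3 (95% interval 0.999 to 1.502), 1.41 for Trib3 (1.15 to 1.67) and 1.37 for Chac1 (0.85 to 1.92). In the 3 h pair these were 1.28 (1.03 to 1.53), 1.18 (0.95 to 1.42) and 1.35 (0.82 to 1.90). For Ddit3, Trib3 and Chac1, and also for Atf4, Xbp1, Herpud1 and Sdf2l1, each GM-CSF library lay above every M-CSF one. For Hspa5 each lay below every M-CSF one, and for Asns and Dnajb9 the levels overlapped. The share of all genes without such overlap was not counted, so this has no background.

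Of the 10 genes, 3 were called higher and 0 lower in each pair. Among all genes with at least 5 CPM, 10.8% were called higher and 8.64% lower without IL6, and 10.6% and 8.06% with it. The median log2 ratio of the 10 genes was 0.59 without IL6 and 0.62 with it, and that of all such genes was -0.03 in each pair. Scaling by total counts instead moved all ratios of the untreated pair by -0.16, and the calls over all genes went to 904 higher and 1191 lower, against 1134 and 907 with TMM; in the 3 h pair the shift was -0.11, and the calls were 951 and 1008, against 1108 and 842. The 10 genes kept their signs under each of the 3 other scalings, and with total counts 2 of them were called higher in the 3 h pair.

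A fit of all 6 libraries in edgeR, with terms for cell type and for each IL6 time, treats these pairs as repeats of the cell type difference. By its quasi-likelihood test with Benjamini-Hochberg adjustment, 8 of the 10 genes rose in GM-BMDM and 2 fell, where 28.9% of all analysed genes rose and 27.4% fell. Trib3 rose by 1.29 on the log2 scale (standard error 0.126, adjusted p = 1.4e-21), Ddit3 by 1.26 (0.124, 2.4e-21), Chac1 by 1.36 (0.324, 9.0e-05) and Atf4 by 0.39 (0.0818, 8.0e-06). Sdf2l1 rose by 0.85 (0.0913, 3.6e-18), Herpud1 by 0.70 (0.0952, 4.4e-12), Dnajb9 by 0.52 (0.104, 3.0e-06) and Xbp1 by 0.35 (0.0816, 5.5e-05). Hspa5 fell by 0.63 (0.0862, 6.3e-12) and Asns fell by 0.48 (0.0987, 5.8e-06).

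These p-values test the GM-CSF over M-CSF difference, but the fit has 1 residual degree of freedom. Their error thus rests on how far the 3 h responses in GM-BMDM and M-BMDM lay apart, pooled over genes, which may be technical. Spread between cultures grown with the same factor was not measured. The DESeq2 Wald test, with the same terms, called 7 higher and 1 lower. Chac1 (adjusted p = 0.0583) and Asns (adjusted p = 0.0596) did not pass that test.

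**Figure D2:**
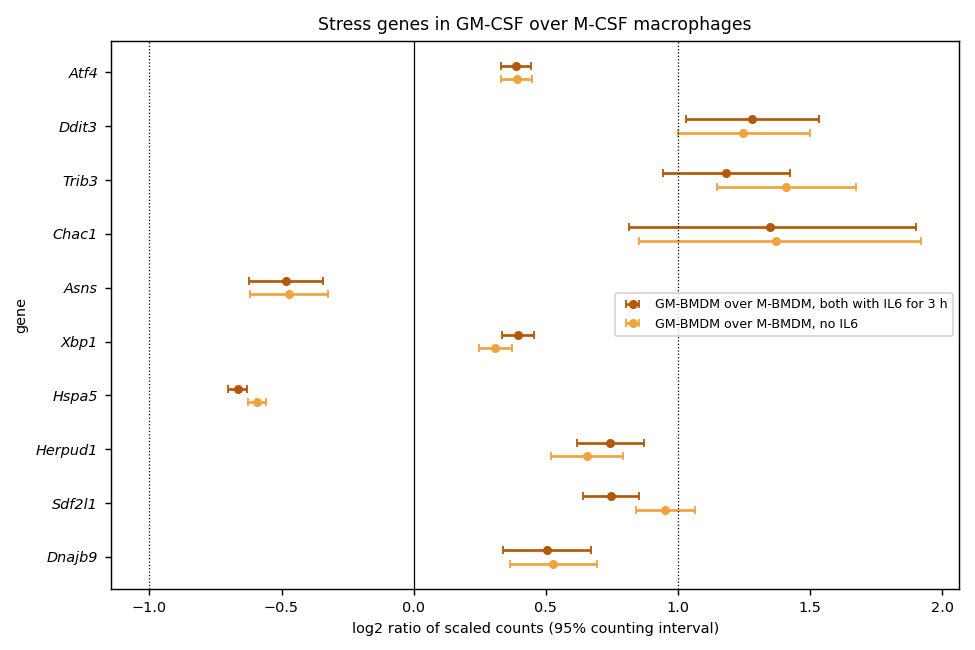
Log2 ratio of scaled counts, GM-BMDM over M-BMDM (x axis), for each gene (y axis) with IL6 for 3 h (dark) and without IL6 (light); bars are 95% counting intervals and dotted lines mark 2-fold. Both pairs put Ddit3, Trib3 and Chac1 beyond 1 and put Asns and Hspa5 below 0.

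Other genes of these pathways, from lists, were read in the same way. Of 12 analysed stress-induced regulators beside ATF4 and CHOP, 3 were called higher and 2 lower in GM-BMDM without IL6, with a median log2 ratio of 0.37 over those at 5 CPM. Gdf15, a stress cytokine, had 49.8 and 45.3 CPM in GM-BMDM with and without IL6, against 9.79 and 8.48 CPM in M-BMDM with and without it. Atf5, a factor related to ATF4 and likewise controlled by translation, had 100.03 and 101.5 CPM in GM-BMDM with and without IL6, against 26.7 and 22.7 CPM in M-BMDM. Vegfa, the vessel growth factor, was lower (log2 ratio -1.95), as was Trib1, a relative of Trib3 (-1.41). By the edgeR test 6 of the 12 rose and 3 fell.

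Amino acid genes were called higher for 3 and lower for 0 of 16 analysed (median 0.41). They were Slc7a11, which imports cystine (1.30), Phgdh, the first enzyme of serine synthesis (1.53), and Slc6a9, a glycine carrier (1.41). Phgdh rose in the edgeR test by 1.44 (standard error 0.0970, adjusted p = 4.1e-40). The tRNA synthetases went the other way: 1 of 20 was called, Dars, the aspartate enzyme, at -1.02, the median was -0.27, and in the edgeR test 3 rose and 11 fell.

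Among sensors and genes of translation control, Ppp1r15a, which encodes the eIF2 phosphatase subunit GADD34 and is induced by ATF4 and CHOP, had 52.3 and 50.4 CPM in GM-BMDM with and without IL6, against 22.0 and 21.2 CPM in M-BMDM. Eif2ak2, the kinase PKR that senses double-stranded RNA, was lower (-1.01). These were the only 2 of 14 called without IL6, and the median was -0.32. ER chaperones and folding enzymes were called for 1 of 18, Pdia4, a disulphide isomerase, with 240.1 and 237.9 CPM in GM-BMDM with and without IL6 against 90.1 and 80.5 CPM in M-BMDM. Their median was 0.02, and in the edgeR test 8 of the 18 rose and 5 fell. Genes of ER-associated degradation (0 of 16 called, median 0.06) and of ER translocation and export (0 of 16, -0.03) lay near the median of all genes.

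Markers of dendritic cells moved with these differences: 5 of 9 analysed were called higher in GM-BMDM and 0 lower, with a summed level of 1106 to 1119 CPM in GM-BMDM and 23.9 to 47.1 CPM in M-BMDM. Itgax, an integrin also found on macrophages, had 994.2 CPM of that sum in untreated GM-BMDM. Of 10 proliferation markers, 3 were called higher, with sums of 531.4 to 555.6 CPM in GM-BMDM, against 361.7 and 360.8 CPM in M-BMDM without IL6 and after 3 h and 2802 CPM after 24 h. Of 10 core macrophage markers, 2 were called higher in GM-BMDM, Mertk and Mrc1, and 5 lower, led by C3ar1, with a median log2 ratio of -0.97 and sums of 47008 to 48319 CPM in GM-BMDM and 26756 to 39226 CPM in M-BMDM. Lyz2 alone gave 43092 to 44295 CPM of the macrophage sums in GM-BMDM and 20120 to 29821 CPM in M-BMDM, so these sums mainly follow that gene. The part of all these markers in the stress gene differences was not tested.

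IL6 for 24 h was given to M-BMDM in 1 library. Of the 10 genes, 0 were called higher and 0 lower after 24 h, where 11.5% of all genes with at least 5 CPM were called higher and 8.93% lower. At less than 2-fold or under 5 CPM, the counting intervals lay below equality for 4 of the 5 integrated stress genes and for Xbp1, and above it for 3 of the 5 ER genes. The share of all genes with such an interval was not counted, so these counts have no background. The 24 h and untreated libraries differed by far more than sampling noise, with a chi-square per degree of freedom of 187.2. Against untreated M-BMDM, the log2 ratio was -0.60 for Atf4 (-0.67 to -0.54), -0.88 for Trib3 (-1.24 to -0.52), -0.79 for Asns (-0.94 to -0.63) and -1.08 for Chac1 (-1.86 to -0.33). For Xbp1 it was -0.37 (-0.43 to -0.30).

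The ratio was 0.81 (0.70 to 0.92) for Sdf2l1, 0.48 (0.32 to 0.64) for Dnajb9 and 0.18 (0.04 to 0.32) for Herpud1. Hspa5 stood at 0.00 (-0.03 to 0.03) and Ddit3 at 0.15 (-0.13 to 0.43). With the 3 h library in place of the untreated one, and the same 24 h library, the ratios were -0.64 for Atf4, -1.10 for Trib3, -0.95 for Asns, 0.58 for Sdf2l1 and 0.56 for Dnajb9. The ratio of Herpud1 was then 0.07 (-0.07 to 0.20), so its interval contained equality.

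Chac1 was 2.12-fold lower but under 5 CPM in both libraries, so it could not be called. The median log2 ratio was -0.18 for the 10 genes and 0.02 for all genes. Against the 3 h library 1 gene, Trib3, was called lower, with 8.59% of all genes. Total counts would move the ratios by 0.14, with 1463 genes called higher and 757 lower, against 1186 and 921 with TMM; Hspa5 alone changed sign, with DESeq2 and with upper-quartile factors.

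Among the other pathway genes called at 24 h, Slc7a11 had the lowest ratio, and other amino acid carriers were lower too. Slc7a11 had 110.1 CPM without IL6, 96.5 CPM after 3 h and 3.45 CPM after 24 h (24 h over untreated, log2 ratio -5.00, -5.33 to -4.68). Slc7a5, part of the carrier of large neutral amino acids, had 54.7, 65.5 and 9.88 CPM, and Slc7a1, a carrier of arginine and lysine, had 129.1, 135.7 and 48.7 CPM. Slc38a2, a carrier of glutamine and other small amino acids, was higher, with 121.9, 113.6 and 274.3 CPM. Of 16 analysed amino acid genes 1 was called higher and 3 lower, and the median over those at 5 CPM was 0.44, opposite in sign to the carriers that were lower.

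Of the 12 stress-induced regulators, 0 were called higher and 4 lower (median -0.73). Vegfa had 260.3, 220.9 and 17.9 CPM along the series, Cebpb, a partner of ATF4 on the C/EBP-ATF element, had 236.1, 155.4 and 22.0 CPM, and Trib1 had 81.4, 81.2 and 10.8 CPM. Ddit4, an inhibitor of mTORC1, had 6.01, 6.21 and 2.66 CPM. Of ER chaperones and folding enzymes, 1 of 18 was called lower, the oxidase Ero1l (120.7, 115.2 and 57.7 CPM), and the median was 0.14. Of genes of ER-associated degradation, 1 of 16 was called lower, the ubiquitin enzyme Ube2j1 (161.6, 154.7 and 80.5 CPM; median -0.02). No gene was called among ER translocation and export (median -0.19), sensors and translation control (-0.10) or tRNA synthetases (-0.23).

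All 10 proliferation markers were called higher after 24 h, with summed levels of 361.7, 360.8 and 2802 CPM along the series. Of 12 immediate early genes 8 were called lower and 0 higher (sums of 1156, 1252 and 480.0 CPM), and of 10 core macrophage markers 1 was called higher and 1 lower. Their part in the stress gene differences was not tested, and with 1 library at 24 h a culture difference and an IL6 response cannot be told apart.

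**Figure D3:**
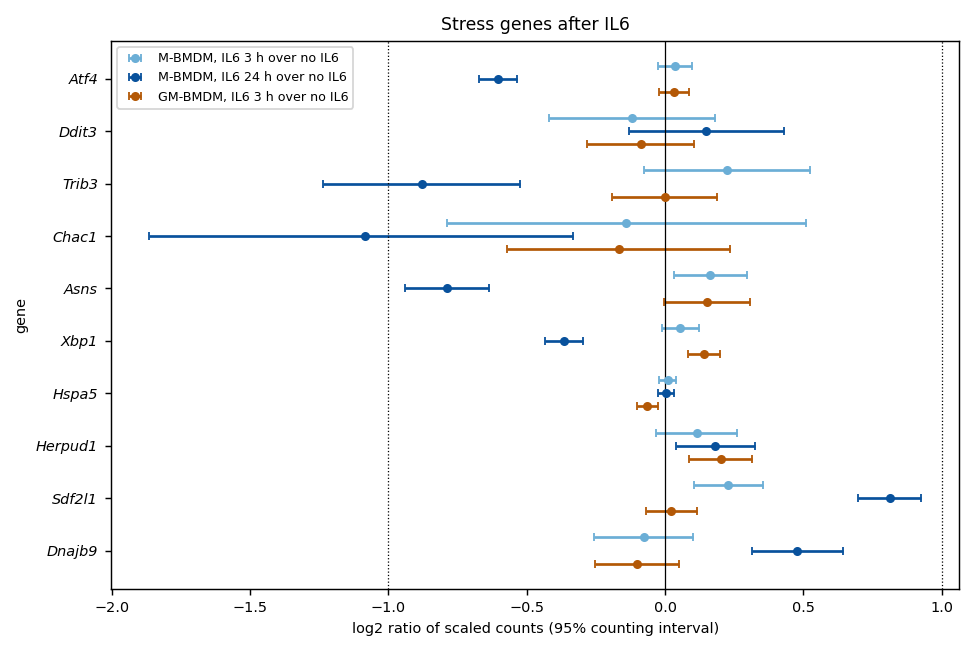
Log2 ratio of scaled counts after IL6 over no IL6 (x axis) for each gene (y axis), in M-BMDM at 3 h and 24 h and in GM-BMDM at 3 h; bars are 95% counting intervals and dotted lines mark 2-fold. At 24 h Atf4, Trib3, Chac1, Asns and Xbp1 lay below 0 and Sdf2l1 and Dnajb9 above it, while the 3 h points lay between -0.17 and 0.23.

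IL6 for 3 h left the 10 genes within 1.17-fold of their untreated levels in either direction in both macrophage types. In GM-BMDM the log2 ratios ran from -0.17 (Chac1) to 0.20 (Herpud1), and in M-BMDM from -0.14 (Chac1) to 0.23 (Sdf2l1). No gene was called in either type. The background was as low, with 0.0585% of genes called higher and 0.107% lower in GM-BMDM, and 0.0906% and 0.272% in M-BMDM. The median log2 ratio of the 10 genes was 0.01 in GM-BMDM and 0.04 in M-BMDM, and that of all genes was 0.01 in each.

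Herpud1 had 66.3 CPM in GM-BMDM with IL6 against 57.7 CPM without it, and 39.6 CPM in M-BMDM with IL6 against 36.6 CPM without it. In the edgeR test over both types its log2 change was 0.16 (standard error 0.0950, adjusted p = 0.726). Asns stood at 0.16 (0.0986, adjusted p = 0.760), Sdf2l1 at 0.12 (0.0909, adjusted p = 0.836) and Atf4 at 0.03 (0.0816, adjusted p = 0.983). Of the 10 genes, 0 passed this test and 0 had an unadjusted p under 0.05; DESeq2 and limma-voom also called 0. Of all genes 0.965% passed, and 1215 of 14719 had an unadjusted p under 0.05. Depth limits this most for Chac1, whose interval in M-BMDM reached from 1.73-fold lower to 1.42-fold higher. Of the pathway lists, Cebpb was the one gene that passed, and over both types it fell by 0.33 (standard error 0.0844, adjusted p = 0.0181). It had 131.4 CPM in GM-BMDM with IL6 against 135.9 CPM without it, and 155.4 CPM in M-BMDM with IL6 against 236.1 CPM without it. Most of that fall thus came from the M-BMDM pair, and the difference between the types was not tested.

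The cultures were compared with bone marrow cells, and both comparisons use the same BM library. Trib3, Sdf2l1, Dnajb9, Xbp1, Hspa5 and Atf4 were higher in both cultures than in BM and Herpud1 was lower in both. Trib3 had the highest ratio of the 10 genes, 37.4-fold in GM-BMDM (log2 5.23, 4.49 to 6.07) and 14.1-fold in M-BMDM (3.82, 3.05 to 4.69), from 15 counts in BM. Herpud1 stood at -0.73 (-0.83 to -0.63) in GM-BMDM and at -1.39 (-1.51 to -1.26) in M-BMDM.

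In GM-BMDM, 3 of the 10 genes were called higher, Trib3, Sdf2l1 (1.64, 1.52 to 1.76) and Dnajb9 (1.05, 0.88 to 1.22), and 0 lower, where 19.8% of all genes were called higher and 22.3% lower. Xbp1 lay just under the limit at 0.99 (0.92 to 1.06). In M-BMDM, 2 were called higher, Trib3 and Hspa5 (1.20, 1.16 to 1.23), and 1 lower, Herpud1, where 20.1% of all genes were called higher and 23.0% lower. The share of the 10 genes that was called was thus near that of all genes. Their median log2 ratio was 0.62 in GM-BMDM and 0.38 in M-BMDM, and that of all genes was -0.03 and 0.06.

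Ddit3 and Asns stood on opposite sides of BM in the 2 cultures. Ddit3 was 0.49 (0.30 to 0.69) in GM-BMDM and -0.75 (-1.02 to -0.50) in M-BMDM, and Asns was -0.30 (-0.44 to -0.15) and 0.18 (0.04 to 0.31). Chac1 was 0.32 (-0.06 to 0.70) in GM-BMDM, which does not exclude equal levels, and -1.05 (-1.61 to -0.52) in M-BMDM, where it was under 5 CPM in both libraries. Total counts would move the ratios by -0.33 for GM-BMDM, with 1692 genes called higher and 3450 lower, against 2250 and 2534 with TMM, and by -0.17 for M-BMDM. Of the 10 genes only Chac1 in GM-BMDM then changed sign. The calls in GM-BMDM became 2 higher and 1 lower, since Dnajb9 (0.72) was no longer called and Herpud1 (-1.06) was called lower. In M-BMDM they became 2 higher and 2 lower.

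**Figure D4:**
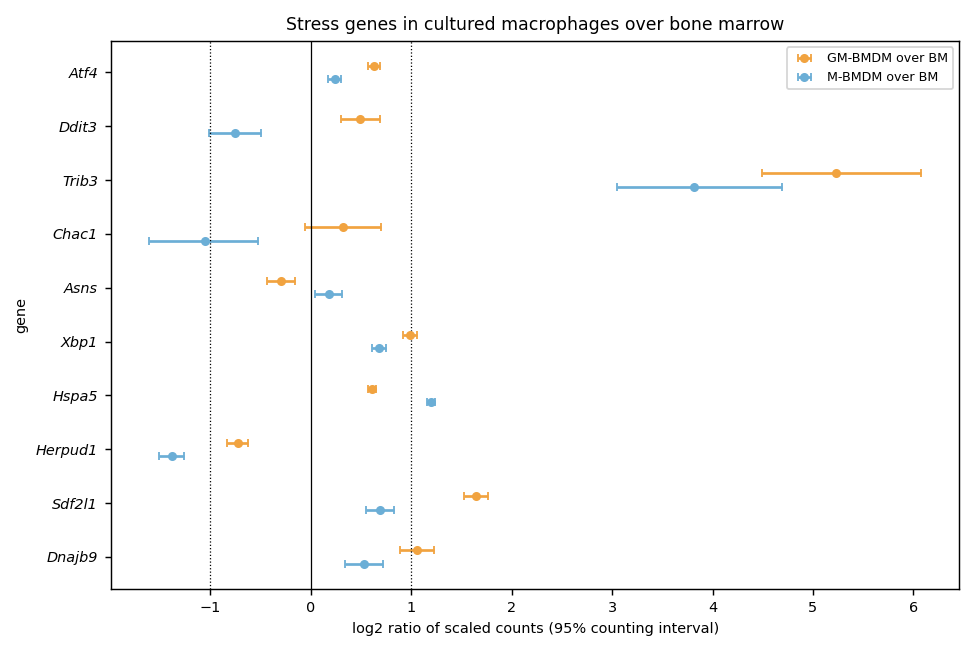
Log2 ratio of scaled counts of each culture without IL6 over BM (x axis) for each gene (y axis); bars are 95% counting intervals and dotted lines mark 2-fold. Trib3 stood at 5.23 in GM-BMDM and 3.82 in M-BMDM, Herpud1 was below 0 in both, and the points of Ddit3 and of Asns fell on opposite sides of 0.

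Counts for the other pathway genes are read against the 19.8% of all genes called higher and 22.3% called lower in GM-BMDM, and the 20.1% and 23.0% in M-BMDM. Of 18 ER chaperones and folding enzymes, 4 were called higher in GM-BMDM and 2 in M-BMDM, near that share in GM-BMDM and below it in M-BMDM, with 0 lower and medians of 0.88 and 0.70. Calr, the lectin chaperone calreticulin, had 1227 CPM in GM-BMDM against 473.1 CPM in BM, and Pdia3, a disulphide isomerase, had 585.0 CPM in M-BMDM against 276.6 CPM in BM. Genes of ER-associated degradation were called higher for 3 of 16 in GM-BMDM and 4 in M-BMDM and lower for 0, led by Sel1l, which holds the degradation ligase complex together (1.53 and 1.38). ER translocation and export genes were called higher for 3 and lower for 1 of 16 in GM-BMDM, and higher for 1 in M-BMDM, the coat protein Sec24d (2.13).

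Stress-induced regulators were called higher for 6 and lower for 2 of 12 in GM-BMDM, and for 7 and 2 in M-BMDM. Atf3, a stress factor downstream of ATF4, had 287.5 CPM in GM-BMDM and 197.3 CPM in M-BMDM, against 3.62 CPM in BM. Ppp1r15a went the other way, with 50.4 CPM in GM-BMDM and 21.2 CPM in M-BMDM against 193.2 CPM in BM, as did Eif2ak1, the haem-sensing eIF2 kinase of red cell precursors (78.5 and 65.4 CPM against 208.8 CPM). Amino acid genes were called higher for 3 and lower for 2 of 16 in GM-BMDM, and for 4 and 3 in M-BMDM. Slc7a11 stood at 5.33 and 4.04, and Slc6a9, which supplies glycine to red cell precursors, at -3.97 and -5.38. Of 20 tRNA synthetases 1 was called higher and 1 lower in GM-BMDM, and 3 and 1 in M-BMDM.

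BM held high levels of markers that were low in the cultures. All 10 erythroid and all 12 neutrophil markers were called lower in each culture. Plasma cells secrete antibody and have high levels of ER genes; their defining genes Jchain and Mzb1 had at most 0.268 and 0.109 CPM in the cultures, against 140.9 and 24.6 CPM in BM. Of 8 analysed plasma cell genes, 3 were called higher and 2 lower in GM-BMDM, and 2 and 3 in M-BMDM, with sums of 806.5 and 750.0 CPM against 400.5 CPM in BM. Sdc1, which macrophages also express, gave 383.2 and 443.4 CPM of those sums. Of 10 proliferation markers 10 were lower in each culture, with sums of 555.6 CPM in GM-BMDM and 361.7 CPM in M-BMDM against 3336 CPM in BM. Their part in the stress gene differences was not tested.

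**Figure D5:**
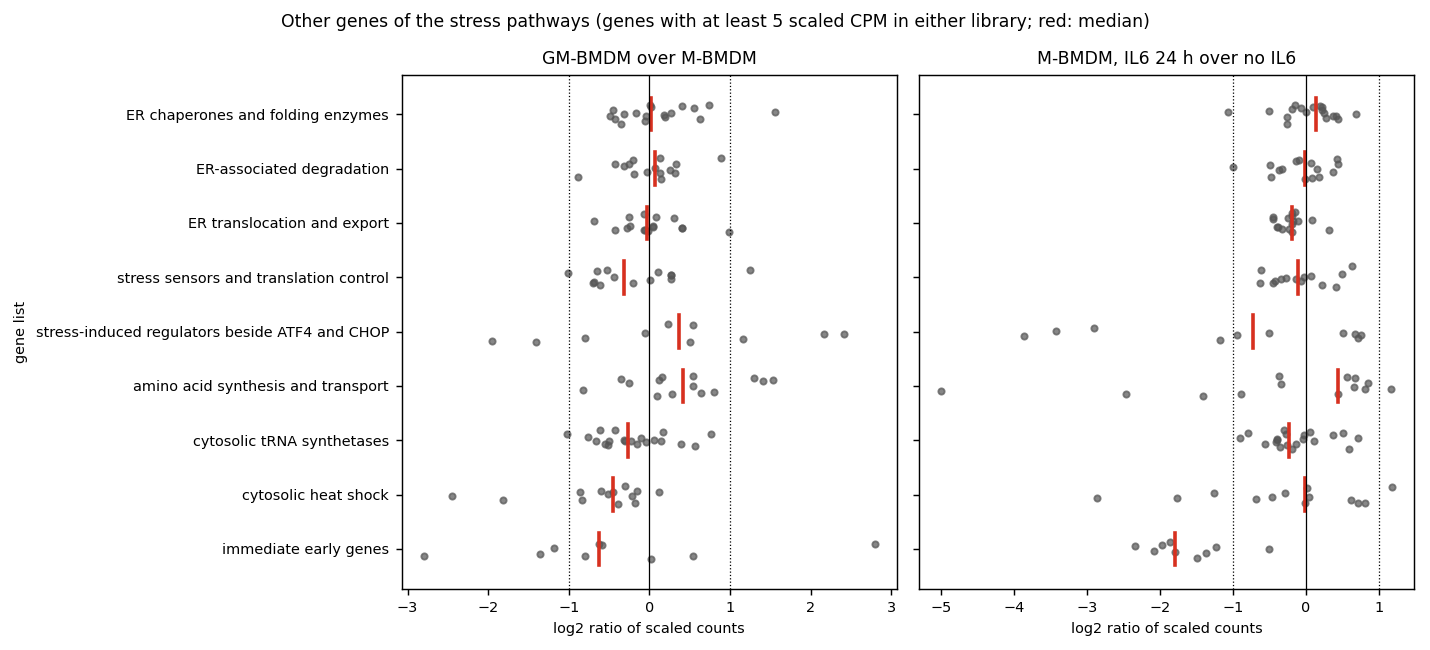
Log2 ratio of scaled counts (x axis) of the other pathway and stress genes with at least 5 scaled CPM in either library, by list (y axis), for GM-BMDM over M-BMDM (left) and M-BMDM with IL6 for 24 h over no IL6 (right); points are genes, red bars list medians, dotted lines 2-fold. Slc7a11 is the point at -5.00 on the right, and the median of immediate early genes there is -1.79.

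The genes whose pattern over the 6 libraries was most like that of a member were named by Pearson's correlation of log2 CPM. These are descriptions only, since 6 libraries in near-equal pairs leave few independent points. Trib3 was followed most closely by Rhoc (0.9998), Rnf217 (0.9990) and Slc25a1 (0.9989). Asns was followed by Wdr73 (0.992), Bzw2 (0.991) and Smox (0.988), and Sdf2l1 by Txndc12 (0.999), Ext2 (0.997) and Fam89b (0.997). Txndc12 is itself a thioredoxin-like protein of the ER, with 48.6 CPM in GM-BMDM with and without IL6, 30.9, 33.3 and 45.2 CPM along the M-BMDM series and 22.8 CPM in BM.

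The 4 genes that carry the C/EBP-ATF element shown above did not share a pattern. In the GM-CSF libraries Chac1, Trib3 and Herpud1 had higher levels than in the M-CSF ones, and Asns had lower levels than in 2 of the 3. After 24 h of IL6 Chac1, Trib3 and Asns were lower and Herpud1 was 0.18 higher on the log2 scale. Hspa5, with the ER stress element in the form searched, was the only member of the 5 ER genes described here with lower levels in the GM-CSF libraries.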

How the data were processed

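The authors deposited 1 table of estimated counts per gene for 6 RNA sequencing libraries. These expected counts are not scaled, and 24.7% to 27.7% of the values above 0 in a library are not whole numbers. The deposited gene length, in bases, was used for levels per kilobase. Per the submitters' processing notes, HISAT2, StringTie and DESeq2 were used with the GRCm38 build; the sources used here give no versions, order, settings or strand use. Of 56278 rows, 742 without a gene name (0.240% to 0.522% of the counts) were left out. GENCODE M21 gave positions, which matched all 55536 named rows.

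Counts were rounded and scaled by TMM (edgeR 4.0.16, R 4.3.3). Ratios of 2 libraries carry exact 95% Clopper-Pearson intervals from the conditional binomial distribution (scipy 1.17.1). Such intervals cover counting error only, because 1 library per group leaves the spread between cultures unmeasured. Where amplified reads carry no molecular identifiers, some may be copies of 1 molecule, and the intervals are then too narrow. edgeR's quasi-likelihood test was fitted on 14719 genes, with at least 1 CPM in some library, to the 6 libraries. Its terms were the growth factor and each IL6 time, 3 h and 24 h. P-values were adjusted by Benjamini-Hochberg at 0.05; the fit has 1 residual degree of freedom, a coefficient of variation of 6.45% and 502.3 prior degrees of freedom. Contrasts that rest on the lone BM or 24 h library were given no p-value. Alternatives were other scalings, limits and filters, the DESeq2 1.42.0 Wald test, limma-voom (limma 3.58.1) and the 4 untreated and 3 h macrophage libraries alone. The steps were tested on simulated data.

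The members and the gene lists were chosen with earlier results of these data known. Beyond the members, the text names up to 4 called genes per list and comparison with the largest ratios, up to 3 of marker and other stress lists, and for a member the 3 genes of the highest correlation with a mean of at least 5 CPM outside the lists. The genes of plasma cells, Itgax and Txndc12's levels were singled out after their values were seen. Xbp1 was left out of the plasma cell list.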

Additional observations from a re-analysis of the deposited data

Results flagged for a closer look

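In 3 cases the intervals of a gene's ratios lay on opposite sides of equality under the same contrast. None of these differences was tested, and chance differences between cultures cannot be judged from 1 library per group. Ddit3 had a log2 ratio to BM of 0.49 in GM-BMDM and -0.75 in M-BMDM, and Asns had -0.30 in GM-BMDM and 0.18 in M-BMDM; both cultures share the BM library. In M-BMDM, Asns had a log2 ratio to the untreated library of 0.16 after 3 h of IL6 and -0.79 after 24 h, and both times share that untreated library. No group had the 4 samples that a check for outlying samples needs.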

How the results depend on the processing

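Libraries could not be paired by replicate, because each group had 1 library and so no replicate numbers. The edgeR fit instead sets the macrophage types side by side within each IL6 condition. With 1 library per group, no replicate could be left out. A fold limit of 1.5 raised the number of the 10 genes called to 7 in GM-BMDM against BM (6 higher, 1 lower), to 6 in M-BMDM against BM (4 and 2), to 6 in GM-BMDM against M-BMDM without IL6 and to 6 with IL6 for 3 h (5 and 1 in each), and to 4 after 24 h of IL6 (1 and 3); in each pair after 3 h it left 0. The share of all genes called at a fold limit of 1.5 was not counted, so these counts have no background. A CPM limit of 1 raised the count at 24 h to 1 (Chac1, lower), and the 3 h library in place of the untreated one, chosen after seeing the data, also gave 1 (Trib3, lower). A CPM limit of 10 left Chac1 out of the calls between the cell types and Trib3 out of those of M-BMDM against BM. All other totals stayed within 1.5 times, although with total counts the 3 calls in GM-BMDM against BM became 2 higher and 1 lower (Dnajb9 lost, Herpud1 gained as lower). Of 210 ratios recomputed under the 3 other scalings, 172 stayed within their counting interval, 38 moved beyond it, and none of the called ones changed sign. For the edgeR fit, the 7 alternatives, which include the DESeq2 Wald test and limma-voom, gave 8 to 10 genes called between the cell types. Only the DESeq2 Wald test gave 8. After 3 h of IL6 the number was 0 in each. Chac1, with 25 to 124 counts, is the gene that depth limits most.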

Other observations

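Most heat shock genes of the cytosol, which answer misfolded protein outside the ER, had lower levels in the GM-CSF libraries than in the untreated and 3 h M-CSF ones. Of 14 analysed, 0 rose and 12 fell in GM-BMDM in the edgeR quasi-likelihood test of cell type. Of all analysed genes, 28.9% rose and 27.4% fell in that test. Hspa1b, an inducible HSP70 chaperone, had 3.71 and 4.97 CPM in GM-BMDM with and without IL6, against 25.3 and 27.1 CPM in M-BMDM with and without it, and it fell by 2.59 on the log2 scale (standard error 0.140, adjusted p = 1.7e-57). Its near-identical copy Hspa1a fell by 1.71 (standard error 0.204, adjusted p = 3.9e-15), and reads of these copies may have been split between them. The summed level of the 14 genes was 2969 to 3010 CPM in GM-BMDM and 3972, 4357 and 5238 CPM in M-BMDM without IL6 and after 3 h and 24 h. Hspa8 alone gave 1238 to 1240 CPM of it in GM-BMDM and 1694.5, 1952 and 2966 CPM along the M-BMDM series. The rise of the sum along that series thus mainly follows Hspa8.

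After 24 h of IL6, 1 of the 14 was called higher and 3 lower in M-BMDM, with a median log2 ratio of -0.01. Hspa1b had 27.1, 25.3 and 3.74 CPM along the series. Ahsa1, which activates HSP90, had 78.2, 87.5 and 176.9 CPM, and Bag3, a partner of HSP70, had 87.1, 97.7 and 36.4 CPM. Untreated GM-BMDM over this 24 h library had a median log2 ratio of -0.59 for the heat shock genes at 5 CPM. Compared with that library, untreated GM-BMDM had less Ahsa1 (69.3 CPM) but more Bag3 (66.7 CPM) and Hspa1b (4.97 CPM).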
